A study of Rattus norvegicus with 138 samples.

Results

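The genes described here differed in the same direction between spontaneously hypertensive rats (SHRs) and normotensive Wistar–Kyoto (WKY) rats in each of 3 brainstem regions and at each of 5 ages. They were chosen from the measured values. In each region's count table, counts were divided by the library total and given as CPM, a level relative to sequencing depth, and the mean of log2(CPM + 0.5) in WKY rats was subtracted from that in SHRs at each age. A gene was kept when all 15 differences had 1 sign and a size of at least 1, and when its mean level reached 1 CPM in either strain in each table. The rule leaves out 6 genes by name, of which 5 met the thresholds. After that, 62 of 32883 genes remained, 35 of them higher and 27 lower in SHRs. Before any gene was left out, 0.284 and 0.231% of the 13010 genes past the level minimum met the thresholds as higher and as lower genes. The strain differences given below are therefore the values that chose the genes, and they are described without a test. Comparisons between regions and between ages within a strain, on which the rule set no threshold, were tested. They are not independent of the choice, because the rule used the same group means at every region and age.

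The tissue came from 46 female rats, SHR/NHsd and WKY/NHsd, killed at 8, 10, 12, 16 or 24 wk of age, which spans the onset of hypertension in SHRs. By age from the youngest, the WKY groups held 5, 4, 3, 3 and 3 rats and the SHR groups 5, 5, 6, 6 and 6, with no treatment. The nucleus of the solitary tract (NTS), the caudal ventrolateral medulla (CVLM) and the rostral ventrolateral medulla (RVLM) were punched from both sides of frozen sections, and each rat gave 1 RNA-seq library per region. Each strain came from 1 supplier and the strains differ throughout their genomes, so a difference between them cannot be told apart from any other strain difference, hypertension included. In bulk punches, fewer cells of a type and less RNA per cell cannot be told apart either.

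The 138 libraries held 5904581 to 17889417 counts, with a median of 10143036.5. Neuronal, astrocytic and oligodendrocytic marker genes were present in every library. Tables name each library with a last digit of 1 or 2, whose meaning was not given in the sources used here. All libraries of 10 wk carry the number 2, as do those of 3 of the 5 WKY rats of 8 wk, of SHR 6 at 12 wk and of SHR 6 at 24 wk. Some of the 62 genes differed with that number, as given below. Depth went with it in part. The lowest library of 10 wk held 12060717 counts and the highest with the number 1 held 11920643. With the number 2 at 8 wk, 1 RVLM library held 9489481. In 2 CVLM libraries, 1 of each strain, the title gives 8 wk and the age label gives 10 wk. They were placed at 8 wk, and leaving them out gave 62 genes again.

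As background, the NTS receives the baroreceptor afferents, the CVLM relays inhibition to the RVLM, and the RVLM holds the presympathetic neurons that drive vascular tone. Inbred strains are each fixed for their own alleles, and the SHR and WKY strains differ at many loci. Members of the set have varied known roles. Among those higher in SHRs are Ephx2, the soluble epoxide hydrolase that breaks down vasodilator epoxides of arachidonic acid, the class I histocompatibility gene RT1-A1 and the complement protease Cfb. Those lower in SHRs include the cilium gene Cfap206, the lens galectin relative Grifin and Pik3r1, the regulatory subunit of phosphoinositide 3-kinase.

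For 4 members the promoter window of the RefSeq reference rat genome (build GRCr8) is shown, because Spock2 had the largest smallest difference among genes higher in SHRs, Grifin and Cfap206 had the largest differences between regions, and RT1-A1 is the only member of the antigen presentation list. Each window runs 5′ to 3′ from 250 bases before to 50 bases after the annotated start. Capitals mark matches, on either strand, to the TATA box TATAAA, the CCAAT box CCAAT, the GC box GGGCGG or the RFX motif GTTGCC. The sequence belongs to neither strain of this study.
Spock2, chr20:28580012-28580311, plus strand: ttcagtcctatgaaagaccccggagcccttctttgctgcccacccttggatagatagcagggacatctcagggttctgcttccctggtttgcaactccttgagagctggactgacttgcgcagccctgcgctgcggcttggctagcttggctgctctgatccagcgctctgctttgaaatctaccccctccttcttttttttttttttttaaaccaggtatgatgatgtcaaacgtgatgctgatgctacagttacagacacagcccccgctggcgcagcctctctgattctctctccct
Grifin, chr12:19194579-19194878, plus strand: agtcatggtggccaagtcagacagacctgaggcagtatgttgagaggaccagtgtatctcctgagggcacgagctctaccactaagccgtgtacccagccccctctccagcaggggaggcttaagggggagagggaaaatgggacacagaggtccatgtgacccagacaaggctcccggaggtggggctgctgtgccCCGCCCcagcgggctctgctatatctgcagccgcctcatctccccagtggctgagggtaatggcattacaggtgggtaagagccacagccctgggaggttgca
Cfap206, chr5:54095334-54095633, minus strand: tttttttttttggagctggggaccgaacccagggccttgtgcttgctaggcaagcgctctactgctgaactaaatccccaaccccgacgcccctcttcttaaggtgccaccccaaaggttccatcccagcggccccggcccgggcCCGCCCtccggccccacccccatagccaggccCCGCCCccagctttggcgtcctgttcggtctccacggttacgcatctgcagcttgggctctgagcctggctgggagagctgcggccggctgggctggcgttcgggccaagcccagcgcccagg
RT1-A1, chr20:4906959-4907258, plus strand: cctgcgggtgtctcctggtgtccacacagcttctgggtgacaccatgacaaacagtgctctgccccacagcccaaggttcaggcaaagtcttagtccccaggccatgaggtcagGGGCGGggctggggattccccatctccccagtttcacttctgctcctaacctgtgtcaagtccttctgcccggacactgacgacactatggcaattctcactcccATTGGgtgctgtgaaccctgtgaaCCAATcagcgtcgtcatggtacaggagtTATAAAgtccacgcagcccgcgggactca
The Spock2 window held none of the 4 motifs. That of Grifin held 1 GC box, that of Cfap206 held 2, and that of RT1-A1 held 1 TATA box, 2 CCAAT boxes and 1 GC box. Over 33469 windows of the same length, 14.2% held TATAAA, 37.5% held CCAAT, 33.1% held GGGCGG and 12.2% held GTTGCC. A promoter entry was found for 38 of the 62 genes, or 61.3%, which was too few for a comparison of the set with other promoters.

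The size of the strain difference varied over regions and ages least for Chi3l1, whose largest and smallest differences were 0.39 apart, and most for LOC100909441, at 3.54. Among all 13010 genes that met the level minimum, a difference of at least 1 at any single region and age was seen for 0.623 to 3.35% of genes in the direction of SHRs and for 0.661 to 4.08% in the direction of WKY rats. The levels of the strains did not overlap over any of the 18 WKY and 28 SHR libraries of a region for 52 NTS members, 55 CVLM members and 54 RVLM members, and 48 were separated in all 3 regions. Of all genes past the level minimum, 0.784, 0.792 and 0.723% were separated in this way in the same order. These counts follow from how the genes were chosen.

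**Figure D1:**
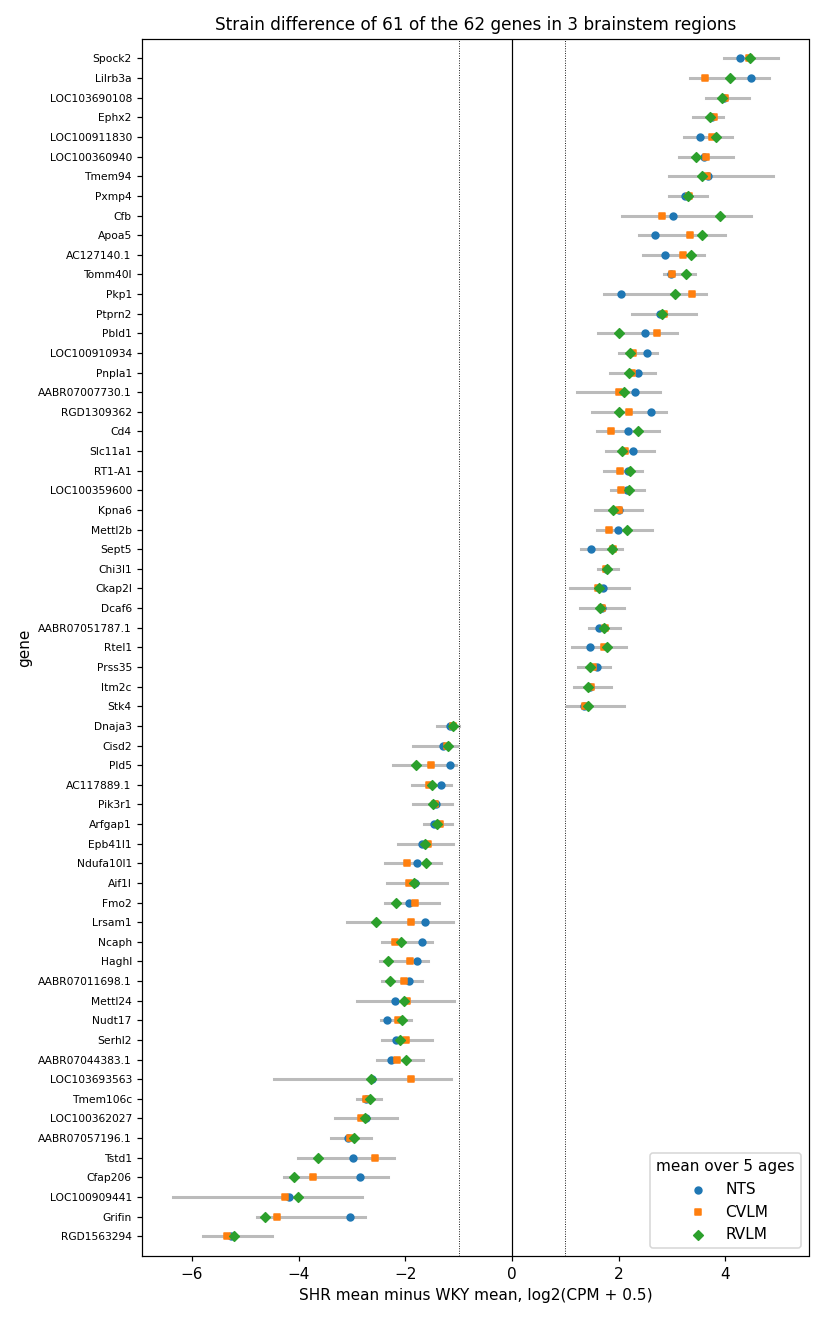
The SHR mean minus the WKY mean of log2(CPM + 0.5) is on the x axis for 61 of the 62 genes on the y axis. Circles, squares and diamonds are means over the 5 ages in the NTS, CVLM and RVLM, gray bars span all 15 differences, and dotted lines mark the threshold of 1. The longest bars belong to LOC100909441, LOC103693563 and Cfb.

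Spock2, which encodes the extracellular matrix proteoglycan testican-2, had the largest smallest difference on the log2(CPM + 0.5) scale among the genes higher in SHRs. Its median in SHRs was 245 CPM in the NTS (184 to 294), 248 in the CVLM (187 to 312) and 241 in the RVLM (138 to 309), with the lowest and highest library in parentheses here and below. In WKY rats the median was 12.5 CPM in the NTS (6.62 to 16.9), 10.7 in the CVLM (5.58 to 18.01) and 11.4 in the RVLM (5.16 to 15.3). Every SHR library was thus above every WKY library, and the 15 differences ran from 3.96 to 4.99 on the log2(CPM + 0.5) scale. Other testicans were measured alongside. Spock1 had a log2 fold change of SHR over WKY over the ages of 0.19 ± 0.22 (SE) in the NTS (adjusted p = 0.75), and Spock3 of -0.09 ± 0.08 (adjusted p = 0.67).

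Ephx2, a candidate gene in rat blood pressure crosses, had a similar gap at a lower level. SHRs had medians of 33.6 CPM in the NTS (24.8 to 42.98), 22.4 in the CVLM (18.1 to 27.4) and 31.98 in the RVLM (23.97 to 40.1). The medians of WKY rats were 1.9998 CPM in the NTS (0.837 to 3.68), 1.34 in the CVLM (0.433 to 1.71) and 1.89 in the RVLM (0.948 to 3.29). The strains were separate in each region, with differences from 3.40 to 3.95, and in both strains the CVLM was lowest. Pxmp4, a peroxisomal membrane protein, reached 31.6 CPM in the NTS (24.4 to 43.4), 33.4 in the CVLM (25.4 to 42.9) and 38.5 in the RVLM (26.2 to 48.4) in SHRs. In WKY rats Pxmp4 stood at 2.96 CPM in the NTS (1.85 to 5.99), 2.93 in the CVLM (1.86 to 4.605) and 3.32 in the RVLM (1.62 to 5.48), and no library of one strain fell within the range of the other. Tomm40l, a relative of the mitochondrial import channel Tomm40, had 52.3, 52.5 and 54.8 CPM as medians of the NTS, CVLM and RVLM in SHRs and 5.81, 6.46 and 5.44 CPM in WKY rats. Tomm40 itself differed by 0.15 ± 0.13 in the NTS (adjusted p = 0.61). Apoa5, an apolipoprotein of triglyceride transport known from liver, was low in both strains, with a median of 9.56 CPM in the RVLM of SHRs and 0.385 CPM in that of WKY rats. Pnpla1, a patatin-like lipid enzyme, had 10.004 and 1.805 CPM there.

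Of the genes with immune roles, Lilrb3a, a myeloid immunoglobulin-like receptor, was near absent in WKY rats. SHRs had 12.8 CPM in the NTS (8.62 to 20.1), 7.35 in the CVLM (3.98 to 14.5) and 9.64 in the RVLM (3.51 to 14.2). In WKY rats the values were 0.0407 CPM in the NTS (0 to 0.652), 0.0892 in the CVLM (0 to 0.815) and 0 in the RVLM (0 to 0.301), and 8, 7 and 13 of the 18 libraries had no count in the NTS, CVLM and RVLM. Lilrb3a is named Pirb in the reference, and another gene with the symbol Pirb was counted apart from it. That gene had NTS means of 0.784 ± 0.586 CPM in SHRs and 0.167 ± 0.162 CPM in WKY rats (SD, n = 28 and 18). Reads of both strains were aligned to 1 reference rat genome, and how far alleles that align less well lower the level of a gene near 0 in a strain was not tested, here or for the other members. RT1-A1, a classical class I molecule that presents peptides to T cells, had 130.0 CPM in the NTS (109 to 182), 117 in the CVLM (88.7 to 154) and 139 in the RVLM (107 to 175) in SHRs. WKY rats had 29.98 CPM in the NTS (17.6 to 36.98), 28.8 in the CVLM (19.4 to 37.1) and 30.3 in the RVLM (19.2 to 40.7), all below the lowest SHR library. Cfb, the protease of the alternative complement pathway, was more variable. Its SHR medians were 5.18 CPM in the NTS (0 to 20.996), 4.18 in the CVLM (0 to 13.8) and 9.71 in the RVLM (1.78 to 21.8). In WKY rats Cfb had 0 CPM in the NTS (0 to 1.47), 0 in the CVLM (0 to 1.31) and 0 in the RVLM (0 to 1.72), with no count in 14, 14 and 11 of 18 libraries. One SHR library in the NTS and 1 in the CVLM, that of SHR 6 at 24 wk named with the number 2, also had no Cfb count. The strains overlapped in these 2 regions and were separate in the RVLM. In the CVLM, SHR libraries with 0.2505, 0.3035 and 1.17 CPM also lay below the highest WKY library. Slc11a1, a metal transporter of phagocyte vesicles, had SHR medians of 12.5, 9.33 and 9.75 CPM against 2.41, 1.65 and 1.85 CPM in WKY rats. Cd4, the co-receptor of helper T cells that rat macrophages also carry, had 5.47, 3.55 and 3.96 CPM against 0.975, 0.679 and 0.4305 CPM. The summed level of 7 microglial markers ran from 254 to 447 CPM in the NTS of SHRs and from 266 to 357 CPM in that of WKY rats, so these ranges lay over each other. The part of microglia in the levels of the immune members was not tested.

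Tmem94, a transmembrane protein, had a WKY level that split by library. SHRs had 43.5 CPM in the NTS (20.4 to 62.8), 35.2 in the CVLM (21.6 to 53.1) and 36.3 in the RVLM (18.2 to 58.5). WKY rats had 4.12 CPM in the NTS (0.239 to 6.12), 2.01 in the CVLM (0.395 to 4.95) and 2.75 in the RVLM (0.105 to 5.98), and the low values are taken up below. The provisional genes LOC103690108 and LOC100911830 and the Diablo-like LOC100360940 complete the 8 genes with the largest smallest difference. LOC103690108 had 26.04 CPM in the NTS (15.7 to 38.3), 28.3 in the CVLM (20.3 to 37.4) and 31.9 in the RVLM (15.3 to 39.6) in SHRs and 1.105 CPM in the NTS (0.261 to 1.75), 1.12 in the CVLM (0.454 to 2.26) and 1.28 in the RVLM (0.661 to 2.95) in WKY rats. For LOC100911830 the medians were 15.2 CPM in the NTS (11.002 to 23.02), 17.99 in the CVLM (13.7 to 22.8) and 23.9 in the RVLM (17.7 to 38.4) in SHRs and 0.911 CPM in the NTS (0.4199 to 1.89), 0.946 in the CVLM (0.329 to 1.77) and 1.23 in the RVLM (0.448 to 3.34) in WKY rats. LOC100360940 is described with its copy below. None of these 3 overlapped between strains in any region.

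The other genes higher in SHRs included abundant neuronal and glial transcripts. Itm2c, a transmembrane protein of neurons, had medians of 326, 179 and 187 CPM in the NTS, CVLM and RVLM of SHRs and 122, 63.7 and 68.5 CPM in WKY rats. Ptprn2, a dense-core vesicle protein, had 188, 120.0 and 121 CPM against 25.4, 15.02 and 14.9 CPM. Sept5, a septin of synaptic vesicles, stood at 139 against 46.02 CPM in the NTS, the region where its strains overlapped. Chi3l1, a secreted chitinase-like protein of reactive astrocytes, stood at 86.9 against 25.2 CPM there, and the desmosomal protein Pkp1 at 8.78 against 0.426 CPM in the CVLM. Nuclear and signaling genes were Kpna6, an importin, Rtel1, a telomere helicase, Dcaf6, a ubiquitin ligase adaptor, Ckap2l, a spindle protein, Stk4, a Hippo pathway kinase, and the tRNA methyltransferase Mettl2b. Their smallest differences ran from 1.04 (Stk4) to 1.60 (Mettl2b). The protease relative Prss35, Pbld1, AABR07051787.1, RGD1309362 and the importin-like LOC100359600 were also higher. Of the rarest, AC127140.1, LOC100910934 and AABR07007730.1 had SHR medians in the NTS of 3.501, 2.96 and 2.35 CPM, and medians of 0 in WKY rats.

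**Figure D2:**
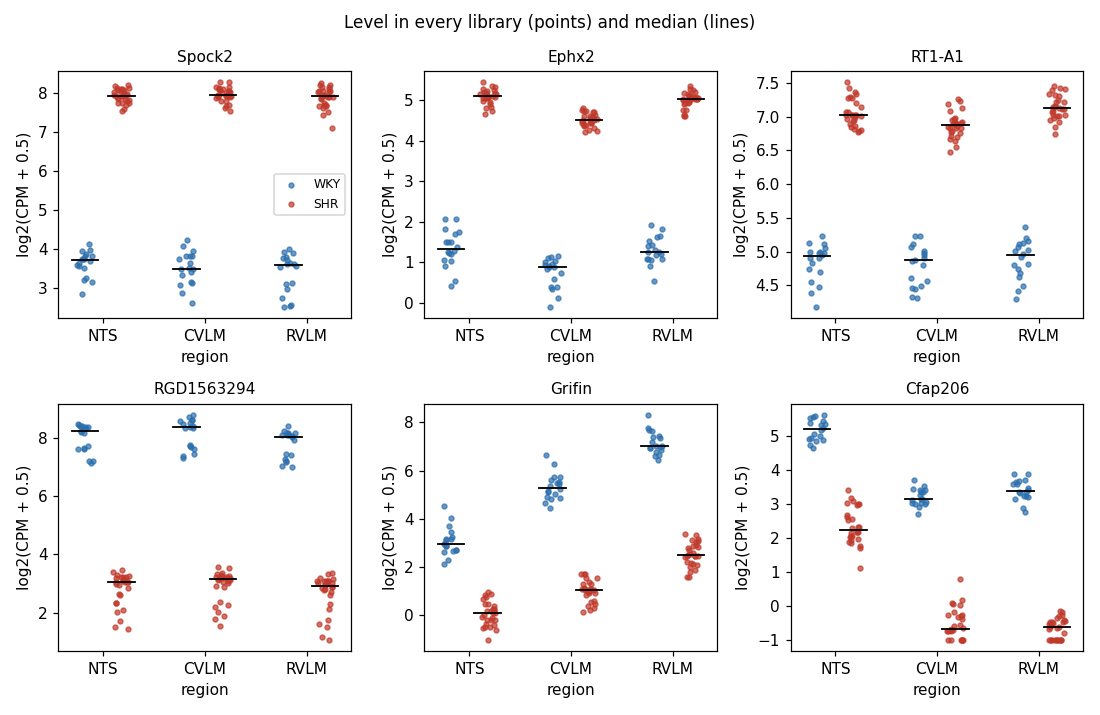
Each point is 1 library at its log2(CPM + 0.5) level on the y axis, by region on the x axis, blue for WKY rats (18 per region) and red for SHRs (28 per region), with black lines at the medians. The strains are separate in all panels, while Grifin rises from the NTS to the RVLM and Cfap206 is highest in the NTS in both strains.

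Among the genes lower in SHRs, RGD1563294 had the largest smallest difference in size. SHRs had 7.81 CPM in the NTS (2.23 to 10.5), 8.31 in the CVLM (2.39 to 11.3) and 7.06 in the RVLM (1.61 to 9.701). WKY rats had 298 CPM in the NTS (139.7 to 349.8), 326 in the CVLM (156 to 441) and 261 in the RVLM (128 to 337), and the 15 differences ran from -4.51 to -5.79. LOC100909441 had 7.68 CPM in the NTS (0 to 19.3), 8.902 in the CVLM (0 to 15.8) and 12.9 in the RVLM (0 to 18.7) in SHRs, with no count in 3, 4 and 4 libraries. The WKY medians of LOC100909441 were 108 CPM in the NTS (71.3 to 145), 101 in the CVLM (70.4 to 121) and 112 in the RVLM (79.5 to 142), so that all WKY libraries were higher. Neither gene matched the reference table.

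Grifin and Cfap206 were the members that differed most between regions. Grifin, which lies within the galectin family and is known from the lens, had 0.578 CPM in the NTS (0 to 1.46), 1.58 in the CVLM (0.612 to 2.82) and 5.16 in the RVLM (2.48 to 10.02) in SHRs. Its WKY levels were 7.35 CPM in the NTS (3.94 to 22.4), 38.7 in the CVLM (21.1 to 100.1) and 129.8 in the RVLM (87.01 to 317). Within each region the strains were separate, and the RVLM of SHRs lay below the CVLM of WKY rats. Cfap206, a radial spoke protein of motile cilia, had 4.18 CPM in the NTS (1.66 to 10.2), 0.122 in the CVLM (0 to 1.22) and 0.146 in the RVLM (0 to 0.393) in SHRs, with no count in 7 CVLM and 10 RVLM libraries. In WKY rats it had 36.2 CPM in the NTS (24.7 to 48.9), 8.38 in the CVLM (6.04 to 12.5) and 9.95 in the RVLM (6.22 to 14.2). The summed level of the ependymal cilium markers in the NTS, 11.9 to 46.3 CPM in SHRs and 20.8 to 115 CPM in WKY rats, overlapped between strains. Of the 6 markers tested, Ccdc153 and Dynlrb2 were lower in SHRs, and their part in the level of Cfap206 was not tested. The sums overlapped in the CVLM (10.7 to 19.4 and 11.7 to 22.0 CPM), where 0 of 3 markers tested were called, and in the RVLM (7.36 to 19.4 and 8.46 to 23.6 CPM), where Dynlrb2 was lower in SHRs.

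The transmembrane gene Tmem106c had 10.7 CPM in the NTS (8.19 to 18.5), 7.83 in the CVLM (4.74 to 10.04) and 7.03 in the RVLM (4.404 to 10.9) in SHRs. WKY rats had 75.9 CPM in the NTS (64.4 to 82.98), 53.2 in the CVLM (44.7 to 65.03) and 45.3 in the RVLM (35.98 to 65.5) for this gene, with no overlap. Tstd1, a thiosulfate sulfurtransferase relative, had 0.685 CPM in the NTS (0 to 1.56), 0.9602 in the CVLM (0.259 to 1.72) and 1.001 in the RVLM (0.0605 to 2.38) in SHRs and 9.33 CPM in the NTS (4.55 to 14.8), 7.97 in the CVLM (4.34 to 14.2) and 16.1 in the RVLM (11.4 to 41.4) in WKY rats, highest in the RVLM of the latter. AABR07057196.1 stayed within 0.478 to 2.91 CPM in the NTS of SHRs and 11.9 to 18.8 CPM in WKY rats, around medians of 1.49 and 15.4. Its medians in the CVLM and RVLM were 1.22 (0.271 to 3.03) and 1.31 (0.642 to 2.48) CPM in SHRs and 13.1 (9.35 to 16.8) and 13.6 (10.2 to 18.9) CPM in WKY rats. The ribosomal protein copy LOC100362027 completes these 8 genes and is described with Rpl30 below.

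Several of the remaining genes lower in SHRs encode enzymes and mitochondrial proteins. Dnaja3, a mitochondrial chaperone, and Cisd2, an iron-sulfur protein of the mitochondrial and endoplasmic reticulum membranes, lay just inside the threshold. Dnaja3 had smallest and largest differences of -1.0015 and -1.41, with 72.6 CPM in the NTS (58.2 to 86.6), 80.2 in the CVLM (62.9 to 91.02) and 76.3 in the RVLM (62.1 to 88.9) in SHRs and 159.5 CPM in the NTS (143 to 181), 168 in the CVLM (150.0 to 196) and 167 in the RVLM (124 to 181) in WKY rats, and its strains were nonetheless separate. Cisd2 had differences from -1.04 to -1.85, with 55.4 CPM in the NTS (45.1 to 71.2), 50.9 in the CVLM (36.03 to 64.1) and 42.3 in the RVLM (32.96 to 55.2) in SHRs and 132 CPM in the NTS (103 to 207), 108 in the CVLM (94.9 to 188) and 94.9 in the RVLM (65.7 to 141) in WKY rats. Just outside lay RGD1564801, whose smallest difference was -0.99, and Eef2kmt, a methyltransferase of elongation factor 2, at 0.98. The flavin monooxygenase Fmo2, the Nudix hydrolase Nudt17, the glyoxalase relative Haghl, the serine hydrolase relative Serhl2 and the complex I subunit relative Ndufa10l1 had smallest differences of -1.36, -1.90, -1.57, -1.50 and -1.32. The files hold a pair of genes with the symbol Ndufa10l1. The member, ENSRNOG00000062245, had medians of 0.372 and 2.47 CPM in the NTS of SHRs and WKY rats, and the other, ENSRNOG00000016470, which did not meet the rule, had means of 160.4 ± 13.4 and 324 ± 22.1 CPM there (SD, n = 28 and 18). Pik3r1 had medians of 33.5 and 88.99 CPM in the NTS of SHRs and WKY rats. Arfgap1, a Golgi trafficking protein, had 13.1 and 37.1 CPM, Epb41l1, a membrane skeleton protein of neurons, 12.2 and 43.8 CPM, and the actin-binding Aif1l 8.801 and 30.97 CPM. The condensin subunit Ncaph, the ubiquitin ligase Lrsam1, Mettl24, the phospholipase D relative Pld5, AABR07011698.1, AABR07044383.1, AC117889.1 and LOC103693563 make up the rest. LOC103693563 was the least regular, with 0 to 18.8 CPM in the NTS of SHRs, 6 of the 28 libraries at no count, and 16.1 to 51.7 CPM in WKY rats.

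The rule set no threshold on differences between regions within a strain, and these were tested with the rat as a block. In SHRs, 33 of the 62 genes differed between the NTS and CVLM at an adjusted p under 0.05 (53.2%), 36 between the NTS and RVLM (58.1%) and 24 between the CVLM and RVLM (38.7%). Of all 14043 genes tested, 57.8, 66.3 and 46.9% did. In WKY rats 16 (25.8%), 29 (46.8%) and 21 (33.9%) genes differed, where 48.6, 60.8 and 37.1% of all genes did. Members needed 1 CPM in only 1 strain, and some, such as Lilrb3a, Cfb and LOC100910934 in WKY rats, entered these tests at near 0 CPM, so nothing is read from their share against that of all genes. Pkp1 for NTS against CVLM, AABR07011698.1 for NTS against RVLM and Haghl for CVLM against RVLM were called in both strains in opposite directions.

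The largest fold changes belonged to Cfap206 and Grifin, in both strains. For Cfap206 the NTS exceeded the CVLM by a log2 fold change of 4.24 ± 0.25 (SE) in SHRs (adjusted p = 6.9e-23) and 1.88 ± 0.08 in WKY rats (adjusted p = 5.1e-22). Against the RVLM these were 4.90 ± 0.26 (adjusted p = 6.2e-25) and 1.62 ± 0.08 (adjusted p = 6.1e-21). All 28 SHRs and all 18 WKY rats had more Cfap206 in the NTS than in either ventrolateral region. The NTS level of Grifin was below that of the RVLM, with log2 fold changes of -3.29 ± 0.17 in SHRs (adjusted p = 2.8e-25) and -4.40 ± 0.18 in WKY rats (adjusted p = 3.0e-22), again in every rat. Between the CVLM and RVLM the Grifin values were -1.78 ± 0.15 and -1.91 ± 0.16 (adjusted p = 1.3e-15 and 5.6e-13), and between the NTS and CVLM -1.51 ± 0.19 and -2.49 ± 0.17 (adjusted p = 3.0e-10 and 3.1e-15). Whether the strains differed in the size of these region differences was not tested.

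Itm2c was also higher in the NTS in both strains, by 0.76 ± 0.04 and 0.79 ± 0.08 over the CVLM in SHRs and WKY rats (adjusted p = 4.9e-23 and 2.1e-10). The NTS exceeded the RVLM in Cd4 by 0.96 ± 0.23 in WKY rats (adjusted p = 4.6e-04) and 0.38 ± 0.08 in SHRs (adjusted p = 2.5e-05). Pbld1 was lower in the NTS than in the RVLM, at -1.49 ± 0.12 in WKY rats (adjusted p = 7.5e-14) and -0.79 ± 0.06 in SHRs (adjusted p = 1.9e-17). Tstd1 in WKY rats was lower in the CVLM than in the RVLM, at -1.17 ± 0.15 (adjusted p = 3.5e-08). In the same comparison the log2 fold change of Dcaf6 was 0.49 ± 0.12 in WKY rats and 0.45 ± 0.06 in SHRs (adjusted p = 6.5e-04 and 6.0e-10), and that of Aif1l was 0.36 ± 0.09 and 0.20 ± 0.06 (adjusted p = 0.0022 and 0.0054). Aif1l and Grifin were the only members called in all 6 comparisons.

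AABR07011698.1 rested on very few counts in SHRs, with 1.40 ± 0.45 for NTS over RVLM (adjusted p = 0.0051) and medians of 0.147 and 0 CPM. Cfb in SHRs was lower in the CVLM than in the RVLM, at -1.34 ± 0.25 (adjusted p = 1.2e-05) and lower in the NTS than in the RVLM, at -1.10 ± 0.25 (adjusted p = 1.4e-04). Lrsam1 in SHRs was higher in the CVLM than in the RVLM by 0.47 ± 0.16 (adjusted p = 0.015). AC127140.1 had -1.81 ± 0.61 in WKY rats for NTS over CVLM (adjusted p = 0.013) at medians of 0 and 0.133 CPM. Pkp1 went opposite ways. In SHRs it was lower in the NTS than in the CVLM in 28 of 28 rats, with a log2 fold change of -1.07 ± 0.09 (adjusted p = 1.7e-15), and in WKY rats it was higher in 15 of 18, with 0.74 ± 0.26 (adjusted p = 0.019) at medians of 0.823 and 0.426 CPM.

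**Figure D3:**
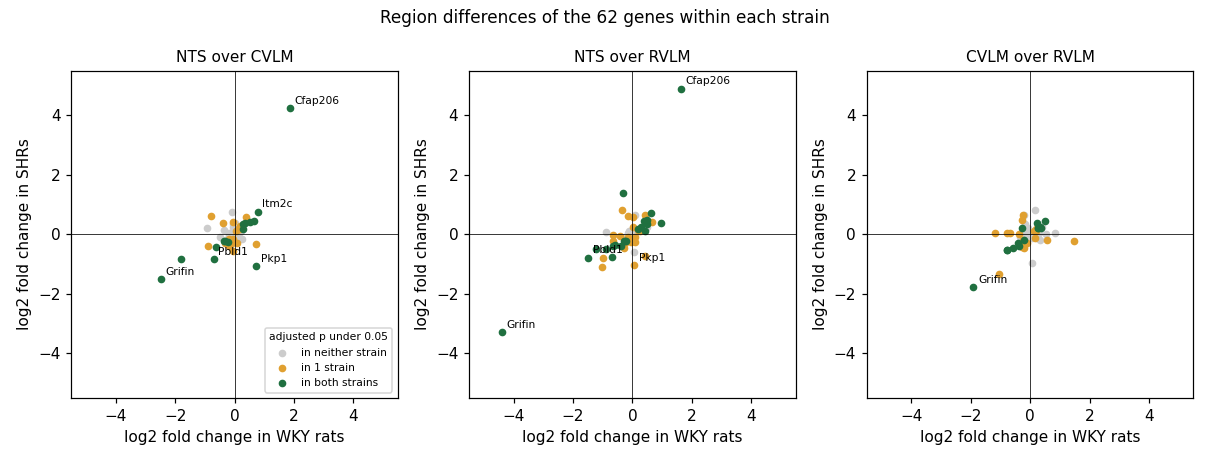
For each pair of regions, the log2 fold change of the first over the second region in WKY rats (x axis) is plotted against that in SHRs (y axis), 1 point per gene, colored by whether the adjusted p was under 0.05 in neither, 1 or both strains. Cfap206 and Grifin stand at the ends, Pkp1 lies in the opposite quadrant for NTS over CVLM, and most genes are near the center.

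Few of the 62 genes, and few of all genes, were called between ages. Between 8 and 24 wk in SHRs, 2 members were called in the CVLM (of 61 tested), 2 in the RVLM and none in the NTS, all higher at 24 wk, where, in the order CVLM, RVLM and NTS, 0.261, 0.104 and 0.0435% of all genes were called in that direction. Pbld1, a member of the phenazine biosynthesis-like family, was called in both ventrolateral regions. In the CVLM it had 25.3, 22.4, 24.4, 21.7 and 24.2 CPM in the 5 SHRs of 8 wk and 38.6, 46.7, 42.7, 47.0, 42.1 and 40.5 CPM in the 6 of 24 wk. The age groups did not overlap, and the log2 fold change was 0.85 ± 0.13 (SE, adjusted p = 6.7e-05). In the RVLM Pbld1 had 22.3, 27.3, 23.0, 21.4 and 25.4 CPM at 8 wk and 36.4, 29.1, 42.6, 33.6, 39.9 and 35.2 CPM at 24 wk, a log2 fold change of 0.56 ± 0.13 (adjusted p = 0.043). Its NTS value was 0.40 ± 0.20 (adjusted p = 0.65). Pbld1 was also higher at 24 than at 8 wk in the CVLM of WKY rats. It had 4.03, 2.57, 2.84, 3.81 and 4.69 CPM at 8 wk and 5.61, 5.17 and 5.01 CPM at 24 wk. These groups did not overlap either, and their difference was not tested. The strain difference of Pbld1 was 2.58 at 8 wk and 2.91 at 24 wk in the CVLM, and 1.60 and 2.32 in the RVLM. The mean Pbld1 level in the CVLM of SHRs, from the youngest to the oldest group, was 23.6 ± 1.49, 26.4 ± 2.86, 33.4 ± 3.65, 38.9 ± 2.42 and 42.9 ± 3.34 CPM (SD, n = 5, 5, 6, 6 and 6).

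Fmo2 in the RVLM of SHRs had 0, 0.093, 0.210, 0.110 and 0.191 CPM at 8 wk and 0.445, 0.424, 1.18, 0.458, 0.884 and 1.45 CPM at 24 wk. The groups did not overlap, with a log2 fold change of 2.69 ± 0.54 (adjusted p = 0.0084), which was lost without SHR replicate 6 of 24 wk (adjusted p = 0.057). Chi3l1 in the CVLM had 50.4, 48.5, 55.8, 60.5 and 55.0 CPM at 8 wk and 61.6, 71.5, 70.8, 79.1, 74.3 and 67.1 CPM at 24 wk, a log2 fold change of 0.37 ± 0.09 (adjusted p = 0.045). The calls of Chi3l1 in the CVLM and of Pbld1 in the RVLM were near the threshold and were lost under several alternatives. When each rat was left out in turn, they were lost in 23 and 32 of the 46 fits. The call of Pbld1 in the CVLM held in all alternatives. In the NTS of SHRs, edgeR called none and DESeq2 called 1. There, 7 of 62 members had an unadjusted p under 0.05 in edgeR, as did 1073 of all 13793 genes. In WKY rats, edgeR called no member between 12 and 24 wk in any region, with 3 rats in each age group, and 0.0447, 0.0 and 0.0% of all genes in the CVLM, NTS and RVLM. At an unadjusted p under 0.05 in edgeR, 6 of 61, 5 of 62 and 4 of 62 members passed in the CVLM, NTS and RVLM. Of all genes, 1540 of 13408, 1104 of 13793 and 1210 of 13411 did, so nothing is read from the members' counts. DESeq2 called 0, 0 and 0 members.

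The spread between rats was described within each strain and age. The SD of log2(CPM + 0.5) within groups had a median of 0.338 over the 62 genes and of 0.30 over all 13010 genes past the level minimum. To see whether a rat that was high in one region was high in the others, each rat's deviation from its group mean was correlated between regions over the 46 rats. The median of the 3 correlations reached 0.3 for 19 members (30.6%) and for 44.8% of all genes. The values were highest for LOC100909441 (0.77), RGD1563294 (0.71), Tmem94 (0.64) and Sept5 (0.53). These are descriptions, since the 3 libraries of a rat share the animal, its dissection and the number in the library name. Without the libraries outside 10 wk that carry the number 2, which left 41 rats, the same correlations were 0.44, 0.13, 0.43 and 0.59.

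For LOC100909441, RGD1563294 and Tmem94, and for Lrsam1, rats with the number 2 lay low in at least 1 group. Tmem94 in the NTS averaged 0.828 CPM in the 3 WKY rats of 8 wk with the number 2 and 4.86 CPM in the 2 with the number 1. RGD1563294 averaged 145 and 345 CPM in the same rats and region, and Lrsam1 5.52 and 10.9 CPM. Each of these genes was lower with the number 2 in the CVLM and RVLM as well. The difference reached 1 in all 3 regions for 2 of the 62 members, Tmem94 and Lrsam1, both lower, as it did for 0.407% of all genes in either direction. In SHRs the number 2 is carried by 1 rat at 12 wk and 1 at 24 wk, both SHR 6. LOC100909441 was low in these rats. At 12 wk, SHR 6 had no count for it in any region, while the other 5 SHRs averaged 9.02, 10.8 and 12.3 CPM in the NTS, CVLM and RVLM. At 24 wk, SHR 6 had 2.01, 0 and 0.659 CPM against 10.01, 8.22 and 14.5 CPM. Of the other members, RGD1563294 was also lower in SHR 6 in all 3 regions at both ages, with 3.19 against a mean of 9.09 CPM in the CVLM at 12 wk. Cfb had 0.304 against 8.34 CPM there, and AABR07007730.1 0.584 against 2.24 CPM. LOC103693563 was higher in SHR 6 in all 3 regions at both ages, with 9.43 against 0.943 CPM in the RVLM at 12 wk. These are not the only such members. On the log2(CPM + 0.5) scale, others lower in SHR 6 throughout included LOC103690108 (-1.07 to -0.42), Grifin (-1.10 to -0.31) and Serhl2 (-1.05 to -0.21). LOC100362027 (-0.84 to -0.33), Mettl2b (-0.76 to -0.30), AABR07057196.1 (-0.72 to -0.31) and further members were lower too. Lilrb3a (0.12 to 0.54), Ptprn2 (0.06 to 0.50), Cfap206 (0.07 to 0.51) and Ckap2l (0.05 to 0.74) were higher throughout. Many members had values of both signs. Since all libraries of 10 wk carry the number 2, the number and that age cannot be told apart. Without the libraries outside 10 wk that carry the number 2, the rule gave 64 genes, of which 60 were among the 62, and Cisd2 and Pld5 were lost.

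**Figure D4:**
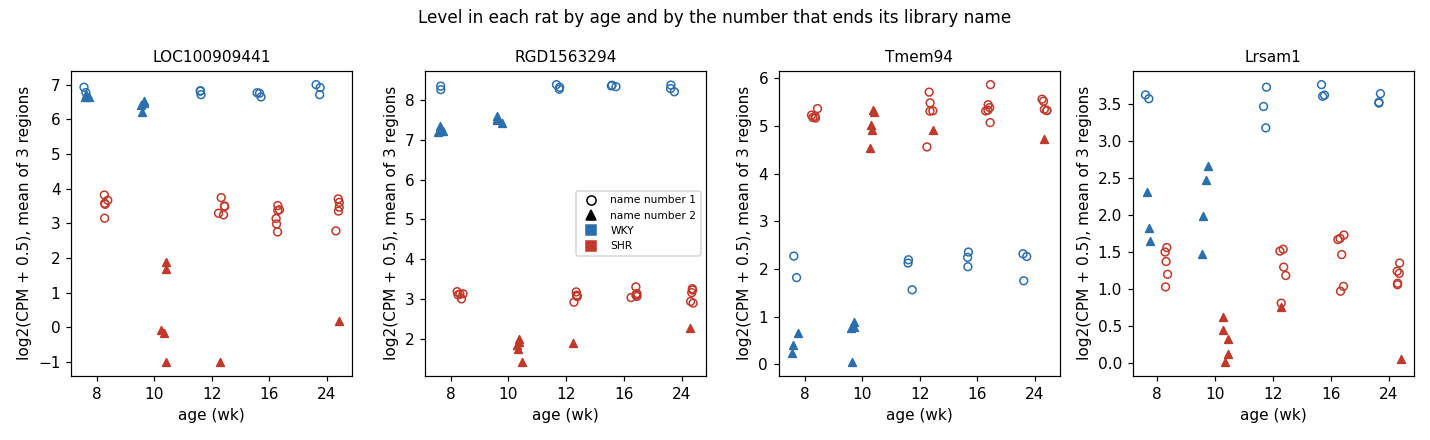
The mean over the 3 regions of log2(CPM + 0.5) is shown for each rat (y axis) by age in weeks (x axis), blue for WKY rats and red for SHRs, with open circles for library names ending in 1 and filled triangles for those ending in 2. The triangles of WKY rats at 8 wk lie low for RGD1563294, Tmem94 and Lrsam1, and those of SHRs at 12 and 24 wk lie low for LOC100909441.

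Some members have a near copy in the genome, and RSEM divides reads that match both by its own estimate. These copies were picked after values had been seen. LOC100360940, named Diablol1 in the reference, had SHR medians of 13.5 CPM in the NTS (9.16 to 15.7), 12.8 in the CVLM (8.25 to 15.96) and 11.6 in the RVLM (9.27 to 16.98) and WKY medians of 0.529 CPM in the NTS (0.03396 to 1.73), 0.475 in the CVLM (0 to 1.31) and 0.609 in the RVLM (0.142 to 1.12). Its parent gene Diablo, which encodes a mitochondrial activator of apoptosis, was the other way around, at 54.4 ± 6.61 CPM in SHRs and 72.2 ± 6.48 CPM in WKY rats (mean ± SD, n = 28 and 18) in the NTS, with log2 fold changes of -0.42 ± 0.06, -0.36 ± 0.04 and -0.49 ± 0.06 in the NTS, CVLM and RVLM (adjusted p = 1.7e-07, 6.4e-09 and 5.3e-09). The sum of both was 67.3 ± 7.86 CPM in SHRs and 72.8 ± 6.48 CPM in WKY rats in the NTS, and 65.7 ± 7.26 and 65.9 ± 7.86 CPM in the CVLM, so the gap of the single gene was not seen in the sum. LOC100359600, named Kpna2l1, behaved alike with Kpna2, an importin. The sum was 43.3 ± 4.72 and 46.1 ± 4.17 CPM in the NTS of SHRs and WKY rats, and Kpna2 alone had log2 fold changes of -0.27 ± 0.05, -0.16 ± 0.05 and -0.27 ± 0.05 (adjusted p = 2.7e-04, 0.016 and 1.6e-04).

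LOC100362027, named Rpl30l2, is a copy of the ribosomal protein gene Rpl30. It had SHR medians of 8.09 CPM in the NTS (4.29 to 13.6), 7.16 in the CVLM (3.903 to 12) and 6.22 in the RVLM (3.53 to 15.4) and WKY medians of 55.7 CPM in the NTS (32.1 to 90.99), 48.9 in the CVLM (32.3 to 75.1) and 47.4 in the RVLM (29.2 to 103). Rpl30 went in the other direction, with log2 fold changes of 1.42 ± 0.13, 1.22 ± 0.11 and 1.16 ± 0.18 (adjusted p = 4.2e-12, 6.2e-12 and 3.1e-06). Their sum remained lower in SHRs, with 46.2 ± 11.01 against 70.9 ± 22.5 CPM in the NTS. RT1-A1 had a counterpart in RT1-A2, which was lower in SHRs with log2 fold changes of -1.50 ± 0.10, -1.41 ± 0.11 and -1.17 ± 0.09 (adjusted p = 2.0e-15, 1.7e-13 and 7.0e-14) at means under 10 CPM. Class I genes are highly polymorphic between strains, so the count of each is uncertain.

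**Figure D5:**
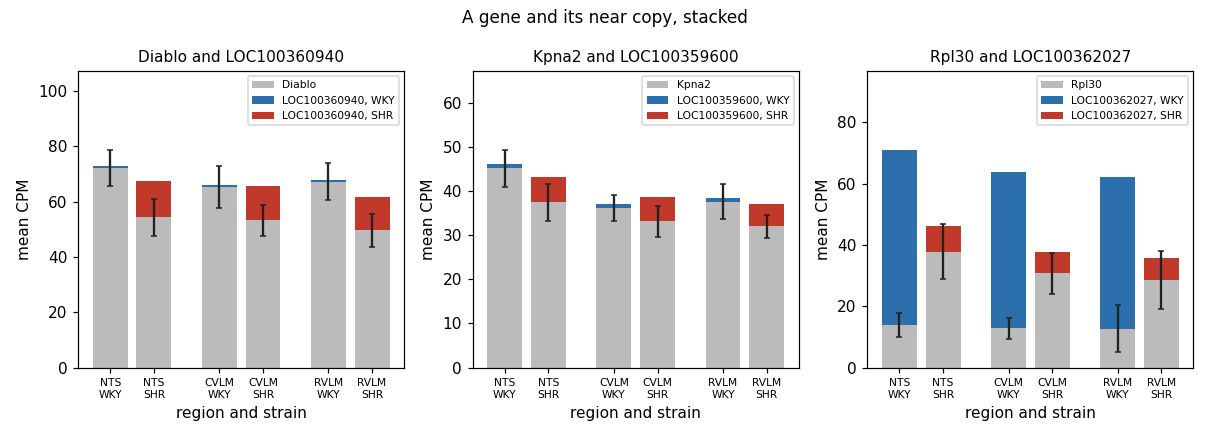
Mean CPM is stacked for a parent gene (gray) and its near copy (blue in WKY rats, n = 18, red in SHRs, n = 28) by region, and error bars are the SD of the parent gene. The stacks of Diablo and Kpna2 have similar heights in both strains, and those of Rpl30 are taller in WKY rats.

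By symbol, older symbol or gene number, 49 of the 62 genes (79.0%) matched the RefSeq table of the GRCr8 assembly, all of them protein coding. The files were made with another build, so no positions are given beyond the promoter windows above, and with under 80% matched the distribution over chromosomes was not compared with that of other genes. The matched members lay on 16 chromosomes, with 9 on chromosome 3, 7 on chromosome 13 and 6 on chromosome 20. The closest pairs were Arfgap1 and Rtel1 on chromosome 3 with 10 protein-coding genes between them, LOC100360940 and Kpna6 on chromosome 5 with 14, and Tomm40l and Tstd1 on chromosome 13 with 15. Arfgap1 was lower and Rtel1 higher in SHRs, with NTS medians of 31.2 (19.2 to 43.2) CPM for Rtel1 in SHRs and 10.5 (6.89 to 19.9) CPM in WKY rats. LOC100360940 and Kpna6 were both higher, and Kpna6 had 41.8 (25.4 to 56.1) and 9.54 (4.94 to 13.8) CPM in the NTS. Tomm40l was higher and Tstd1 lower. On chromosome 20, which holds the histocompatibility region, RT1-A1, Cfb, Pnpla1, Pbld1 and Spock2 were higher in SHRs and Mettl24 lower, with 49 genes between Cfb and RT1-A1 and 53 between RT1-A1 and Pnpla1.

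Few members stood on the lists of pathway genes. RT1-A1 was the only 1 on the antigen presentation list, Cfb on that of complement, and Ephx2 on those of glutathione and xenobiotic metabolism and of blood pressure candidates. No member was on the lists of lipid metabolism or of hemoglobin. Over the ages, 4, 5 and 4 of the other 26, 27 and 26 antigen presentation genes tested were higher in SHRs and 7, 8 and 5 lower in the NTS, CVLM and RVLM at an adjusted p under 0.05, where 5.66, 5.28 and 5.84% of all genes were called higher and 5.51, 7.0 and 4.98% lower. The proteasome subunit Psmb8 was higher by 1.18 ± 0.08 in the NTS (adjusted p = 2.5e-16), the peptide transporter Tap2 by 0.95 ± 0.13 (adjusted p = 5.7e-07), and its partner Tap1 was lower, at -0.59 ± 0.10 (adjusted p = 3.6e-05). Of the other complement genes, 3, 4 and 5 of 23, 22 and 23 were higher and 4, 4 and 2 lower. C3, which factor B joins in the alternative pathway, was higher by 1.02 ± 0.27 in the NTS (adjusted p = 0.0069) at 22.4 ± 29.8 CPM in SHRs (SD, n = 28), and C4b of the classical pathway lower, at -1.36 ± 0.29 (adjusted p = 6.8e-04). The glutathione and xenobiotic list had 2, 1 and 3 of 35, 35 and 36 higher and 3, 5 and 4 lower. On the lipid and fatty acid list, 1, 3 and 3 of 32, 31 and 31 were higher and 0, 4 and 3 lower. Besides Ephx2, 3, 3 and 5 of 27, 26 and 26 blood pressure candidates were higher and 3, 1 and 1 lower. Of 6 hemoglobin and red cell genes, 0, 0 and 1 were higher and 2, 5 and 4 lower. The rule left out Hba-a3 by name, so the absence of hemoglobin genes from the set is in part fixed by it. The part of residual blood in the levels of the 62 genes was not tested.

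Cell type markers were tested in the same fits, where the shares of all genes called were those given above. None of the noradrenergic and adrenergic, serotonergic or neuronal markers tested was called in any region. Of 7 astrocyte markers, S100b alone was lower in SHRs in all 3 regions, with means of 1620 and 3123 CPM in SHRs and WKY rats in the NTS, and Aldh1l1 was higher in the RVLM. Oligodendrocyte markers had 1, 1 and 0 of 7 higher and 1, 4 and 3 lower in the NTS, CVLM and RVLM, microglial markers 0 of 7 higher and 1, 2 and 1 lower, and endothelial markers 1, 0 and 0 of 6 higher and none lower. Blood cell markers had none of 4 higher and 1, 3 and 3 lower, ependymal markers none of 6, 3 and 3 higher and 2, 0 and 1 lower, and leptomeningeal markers 0, 0 and 1 of 5, 5 and 6 higher. Choroid plexus markers were lower for 3 of 5 in the NTS, where the highest 2 WKY libraries had summed levels of 4868 and 1837 CPM and the median WKY library 5.78 CPM, and higher for 1 of 2 in the CVLM. The part of these cell types in the strain differences of the 62 genes was not tested.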

How the data were processed

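Total RNA of each punch was sequenced, and the authors aligned reads to the rn6 genome with STAR inside RSEM, whose expected counts per gene they deposited in 1 table per region. Their methods name ComBat_seq, and whether it was applied to these tables is not given in the sources used here. Every column was tied to a sample by its name, and 0 columns were left without one. Depth limits the rarest genes, several of which have few counts.

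CPM were computed from column sums. Expected counts were rounded and fitted with edgeR 4.0.16 (R 4.3.3, TMM, robust quasi-likelihood, Benjamini-Hochberg adjustment over all genes passing a regularized log value of 3.5 in any library of the region), with a mean for each strain and age, or with the rat as a block between regions. The fits were also run on simulated counts with 1 fixed spread and no level shared by the libraries of a rat. Those runs do not show how the fits treat rat effects, library-name numbers or genes near 0. Strain at an age was called at an adjusted p of 0.01 and a log2 fold change of 1, other contrasts at 0.05. DESeq2 1.42.0, other scalings, filters, batch terms and left-out rats were alternatives. Members and gene lists were chosen with earlier results of these data known. All members were named but 1, which is not reported here, with levels for the 8 of each direction with the largest smallest difference and the 2 just inside the threshold. The largest called folds, the highest correlations between regions, near neighbors and listed genes were given by those values. P-values of strain and age set a difference against the spread between these rats, estimated over all groups of a region together. Those between regions, with the rat as a block, set the region difference against how much it varied from rat to rat, over all ages together.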

Additional observations from a re-analysis of the deposited data

Results flagged for a closer look

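In the CVLM, LOC100909441 had 0 CPM in SHR 6 of 12 wk, and the gap to the next of the 6 SHRs was 0.789 of the range of the group, past the limit for a single low value. The same rat had no count in the NTS and RVLM, and its library names end in 2, unlike those of the other 5 SHRs. The part of that number was not tested. In all, 36 groups were examined in this way, for LOC100909441, RGD1563294, Tmem94 and Lrsam1 at strains and ages holding both library-name numbers. For these genes, rats with the number 2 had already been seen to lie low in some of these groups. Chance alone singles out about 1 in 20 groups picked without regard to their values. That rate therefore does not apply here, and the low value is only described.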

How the results depend on the processing

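All counts of members called between regions stayed within 1.5 times their value under every alternative run. The set itself held 60 to 63 genes when each rat was left out in turn, 53 with a pseudocount of 1, 70 with 0.1, and 38 with a difference of at least 1.5. The age calls were the least stable. In the CVLM of SHRs, 2 members were called between 8 and 24 wk, against 4 with DESeq2 and 1 with RLE scaling, with no filter, without the 2 libraries of conflicting age, without the libraries named with the number 2 outside 10 wk, with that number as a term or with an additive replicate block. In the RVLM the count of 2 became 1 with RLE scaling, with no filter, without those libraries or with the number as a term. In the NTS DESeq2 called 1 and edgeR 0. Leaving out each rat gave 1 to 3 CVLM members and 0 to 2 RVLM members. Fmo2 was lost without SHR replicate 6 of 24 wk (adjusted p = 0.057) and without the libraries named with the number 2 outside 10 wk (adjusted p = 0.054), both in edgeR. The causes were not tested. No named gene reversed its direction. Replicate numbers are shared across groups, and same-numbered rats of both strains correlated above 0.1 in 32 of 54 pairs (-0.33 to 0.55). Every pair did so in the NTS at 12 and 24 wk and in the CVLM at 10 and 12 wk, but not at the other ages or in the RVLM, so the numbers were not taken to pair the rats. A replicate block within each age could not give an age contrast and was not run for it. The additive block and leaving out the libraries named with the number 2 outside 10 wk were chosen after seeing the data.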
